A study of Mus musculus with 8 samples.

Results

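Transcripts of 36 epithelial genes were followed in KPC tumours grown under the skin of mice. The KPC model carries mutations typical of human pancreatic ductal cancer. The set holds simple-epithelial keratins, junction proteins, the epithelial matriptase system, epithelial regulators and surface or secreted products of ductal and gut-type tumour cells. Members were taken by gene symbol from a table of 57132 genes, at the identifier with most reads, and all 36 were found. The PDT group came from tumour-bearing mice given Ce6@D4-EV and then light. Chlorin e6 (Ce6) is a light-activated agent that produces reactive oxygen, and D4-EV is the submitters' name for what carries it. The PBS group came from mice given phosphate-buffered saline. Each group had 4 bulk RNA libraries. Arms given light without the agent, or the agent without light, were not analysed here. The labels give no age, sex, strain, cell clone or time after light. Separate animals are not stated for the 4 libraries of each group, and p-values therefore cover the spread between libraries, which may be technical. They describe the tissue as sorted but name no gate. Fibroblast, macrophage, endothelial and skeletal muscle genes were all read in these libraries.

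Simple epithelia build their intermediate filaments from a type II keratin such as keratin 8 or 7 paired with a type I keratin such as keratin 18, 19 or 20. Their cells are sealed by tight junctions of claudins and occludin anchored on ZO scaffold proteins, and are held together by desmosomes. Regulators such as GRHL2, OVOL1, the ETS factors ELF3 and EHF and the ESRP splicing factors keep this state on. In pancreatic cancer, keratin 19, SOX9 and MUC1 are used as marks of the ductal lineage, and loss of epithelial genes accompanies a shift to a mesenchymal state. In bulk tissue, fewer epithelial cells and less epithelial RNA per cell cannot be told apart.

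Libraries held 39026840 to 48804713 gene counts in PDT and 35742024 to 40337306 in PBS. Levels are given as CPM, counts scaled to a common library size with TMM factors. A count of 0 allows up to 3 reads, or 0.0665 to 0.0872 CPM, for counting error alone. This floor takes reads as counted singly. It would be higher if both reads of a pair were counted, as the mostly even low counts given below would allow. On the first principal component of all tested genes PBS 1 stood apart at −111.5, against 16.1 to 37.2 in PDT and −8.53 to 4.32 in the other PBS libraries. PBS 3 and PDT 4 each held the highest reads of epidermal genes in their group, as given below with the results they touch. EdgeR's quasi-likelihood test called 39 of 16588 tested genes at the adjusted threshold of 0.05, or 0.235%.

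Of the 33 members that could be tested, 0 passed the threshold between PDT and PBS. EdgeR called 0 members, where it called 0.235% of all tested genes, 0.163% as higher in PDT and 0.0723% as lower. DESeq2 and limma-voom called 0 members too. DESeq2 called 6.36% of the 13671 genes to which it gave an adjusted p, and limma-voom 1.01% of all tested genes. Marveld2 was given no adjusted p by DESeq2. The smallest adjusted p among the members was 0.155 by edgeR (Sox9), 0.0607 by DESeq2 and 0.134 by limma-voom. At an unadjusted p under 0.05 there were 2 of 33 members in edgeR, Sox9 and Tjp1, both lower in PDT, and 16.5% of all tested genes. Fitted differences were above 0 for 12 members and below 0 for 21, with a median log2 fold change of −0.13, where 49.8% of all genes were above 0 and their median was −0.0022. The 2 groups overlapped in CPM for every tested member but Tjp1, while 10.1% of all tested genes did not overlap. Rab25, Grhl2 and Ovol1 had too few reads to be tested.

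The balance of signs turned when PBS 3, the library in which epithelial genes were highest, was left out. Without PBS 3, 25 of 33 members were above 0, the median was 0.29 and 7 members had an unadjusted p under 0.05 by edgeR. PBS 3 stands out by these same values, and leaving out the highest PBS library raises PDT minus PBS by itself. This fit is therefore no separate evidence of a direction. With any other library left out, 6 (without PBS 4) to 16 (without PDT 2) of 33 or 34 members were above 0. Over all genes that fit gave 2349 of 17076 with an unadjusted p under 0.05, and 0 were called. After adjustment 0 members passed (smallest adjusted p = 0.26 by edgeR). Limma-voom with sample quality weights put 18 of 33 above 0 with a median of 0.069. A difference missing the threshold does not show equal levels, and the 95% intervals of the fitted differences below give the sizes that remain possible.

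**Figure D1:**
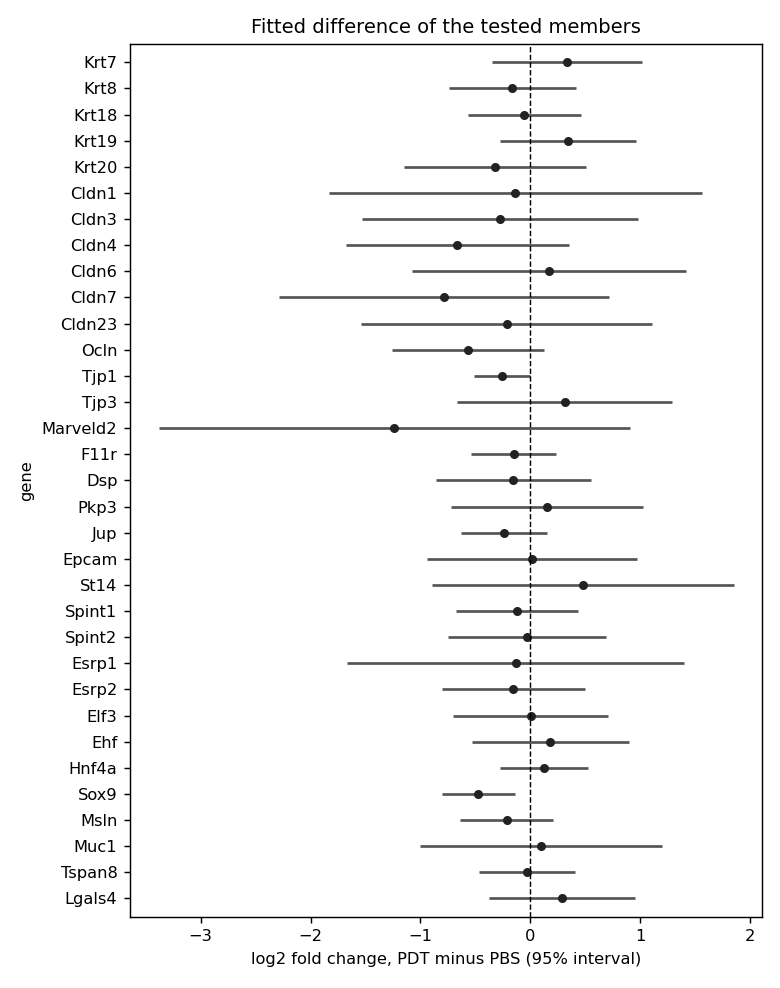
Fitted log2 fold change of PDT minus PBS for the 33 tested members, ordered by role from top to bottom, with points for the estimate and lines for the 95% interval from the edgeR fit. The intervals of Sox9 and Tjp1 lie below 0, and those of low genes such as Marveld2 and Cldn1 are the widest.

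Keratins made up most of the summed CPM of the members, and 0 of 5 passed the test. Keratin 8 (Krt8, ENSMUSG00000049382), the type II partner of simple epithelia, had 1719, 1229, 1510.2 and 2400.3 CPM in PDT 1 to PDT 4, against 1522, 1671, 3089 and 1399 CPM in PBS 1 to PBS 4. One library of each group, PDT 4 and PBS 3, was well above the other 3, and the groups overlapped across nearly their whole range. The log2 difference was −0.16 ± 0.27 (SE, adjusted p = 0.828 by edgeR, 95% interval −0.75 to 0.42). Keratin 18 (Krt18, ENSMUSG00000023043), which forms filaments with keratin 8, had 1565, 881, 1173 and 1564 CPM in PDT 1 to PDT 4, against 964, 1091, 1928 and 1398 CPM in PBS 1 to PBS 4. It was lowest in PDT 2 and highest in PBS 3, and the groups differed on the log2 scale by −0.054 ± 0.24 (adjusted p = 0.945). The ductal keratin 19 (Krt19, ENSMUSG00000020911) had 765, 469.9, 673 and 1162 CPM in PDT 1 to PDT 4, against 459, 499, 947 and 514 CPM in PBS 1 to PBS 4. PDT 1, PDT 3 and PDT 4 exceeded PBS 1, PBS 2 and PBS 4 while PBS 3 lay among the PDT values, and the log2 difference was 0.34 ± 0.28 (adjusted p = 0.609, 95% interval −0.28 to 0.96).

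Keratin 7 (Krt7, ENSMUSG00000023039), a second type II keratin of ducts, also overlapped between the groups. It had 259.5, 168, 278 and 419 CPM in PDT 1 to PDT 4, against 205, 190.3, 367 and 133 CPM in PBS 1 to PBS 4. On the log2 scale the groups differed by 0.33 ± 0.31 (adjusted p = 0.663 by edgeR). Keratin 20 (Krt20, ENSMUSG00000035775), a keratin of gut-type epithelium, had 78.3, 55.3, 41.9 and 85.5 CPM in PDT 1 to PDT 4, against 63.2, 51.5, 165 and 45.9 CPM in PBS 1 to PBS 4. PBS 3 lay far above the other 3 PBS libraries, and the log2 difference of −0.32 ± 0.38 (adjusted p = 0.746) turned to 0.29 without PBS 3. Summed over the 5 keratins, PDT libraries held 2803 to 5630.4 CPM and PBS libraries 3213 to 6495 CPM.

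**Figure D2:**
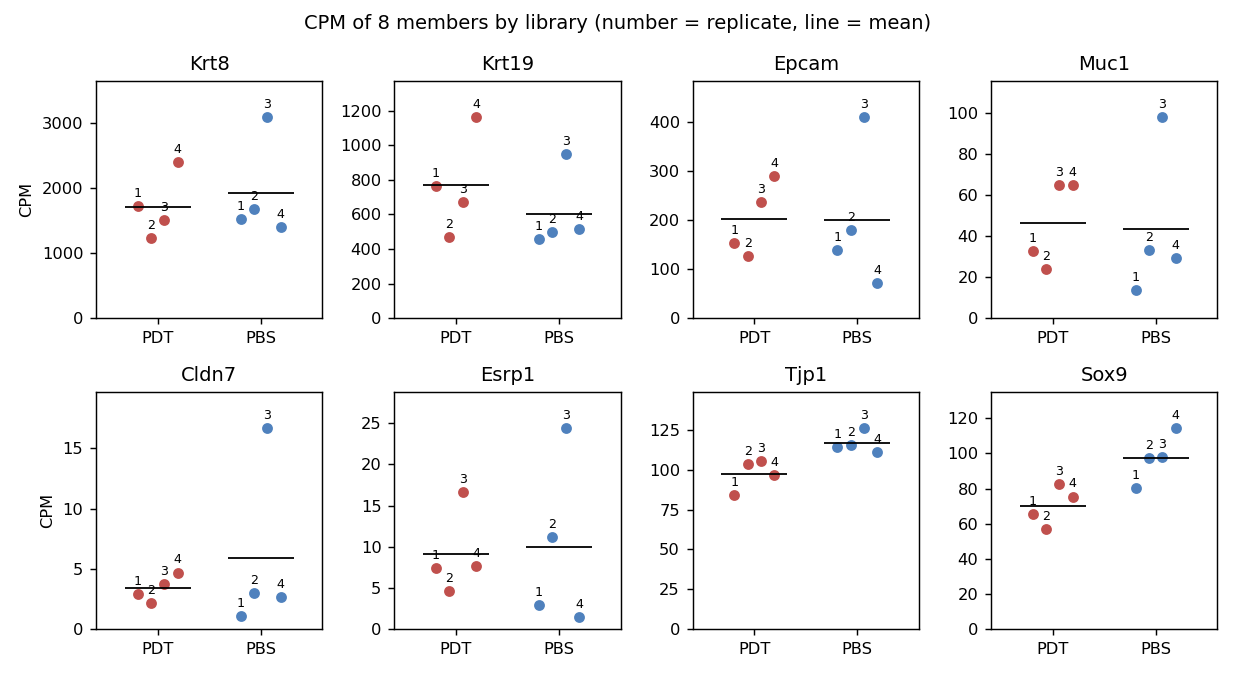
CPM of 8 members in every library, PDT left and PBS right in each panel, each dot a library numbered by its replicate and the line the group mean on an axis from 0. PBS 3 is the highest PBS library in all panels but Sox9, and Tjp1 is the gene here whose groups do not overlap.

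Divided by exon length, the levels of the members spanned a wide range, and the order was much the same in both groups. Mean CPM per kilobase was 876 in PDT and 981 in PBS for Krt8, 902 in PDT and 936 in PBS for Krt18 and 414 in PDT and 326 in PBS for Krt19. Next came Lgals4, a gut galectin, at 273 in PDT and 223 in PBS, Tspan8, a tetraspanin of gut and pancreatic tumours, at 161 in PDT and 164 in PBS, and Epcam at 91.8 in PDT and 90.9 in PBS. These 6 genes kept their rank in both groups except that Krt18 led in PDT and Krt8 in PBS, a difference far inside the spread of libraries. At the other end, Grhl2 was at 0.0199 in PDT and 0.0168 in PBS and Ovol1 at 0.0245 in PDT and 0.0569 in PBS. Lengths are merged exons, so a gene with long alternative ends, such as Krt7 at 7049 bases, is understated.

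Epcam (ENSMUSG00000045394), a homotypic adhesion molecule of epithelial cells, differed more among PBS libraries than among PDT libraries. It had 154, 126, 236 and 290.2 CPM in PDT 1 to PDT 4, against 138, 179, 409 and 71.2 CPM in PBS 1 to PBS 4. PBS 4 was the lowest and PBS 3 the highest of all 8 libraries, and the range was 2.31-fold within PDT against 5.74-fold within PBS. The group means were 202 ± 75.4 CPM in PDT and 199 ± 147 CPM in PBS (SD, n = 4 each), and the log2 difference was 0.016 ± 0.44 (adjusted p = 0.993 by edgeR, 95% interval −0.94 to 0.97). Rab25 (ENSMUSG00000008601), a small GTPase of apical recycling, was read mainly in a few libraries, at 6, 0, 42 and 24 reads in PDT 1 to PDT 4, against 0, 0, 108 and 0 reads in PBS 1 to PBS 4. Its PBS reads came from PBS 3 alone, the PBS library with most epidermal reads. Within PDT it was highest in PDT 3 and not in PDT 4, the PDT library with most epidermal reads.

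Because many members were high and low in the same libraries, their promoters were searched for shared short motifs. RefSeq promoters (GRCm38.p6) were found for 25 of 36 members, with 30 starts in all, and the 250 bases before each start were used. The E-box CACCTG, read on both strands (CACCTG or CAGGTG), is the site that the repressors ZEB1 and SNAI1 of the epithelial-mesenchymal transition are known to bind. It was present in 17 of 30 member promoters (56.7%), belonging to 16 of 25 genes, against 17.2% of 32851 RefSeq promoters and 16% of the 15086 promoters of tested genes. The GC-box GGGCGG, on both strands, was in 63.3% of member promoters, 32.7% of all and 53.7% of those of tested genes. The Grainyhead-type motif AACNNGTT, which reads the same on both strands, was in 2 member promoters, or 6.67%, against 3.64% of all. These are matches of letters in one window and not measured binding. Zeb1 itself had 45.8 to 79.2 CPM in PDT and 57.4 to 86.4 CPM in PBS, and Snai1 had 17 to 37.6 CPM in PDT and 15.3 to 26.8 CPM in PBS.

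The E-box did not go with spread between libraries in every member. Cldn1 and Marveld2, at 22.6-fold and 16.3-fold over all libraries, had no match, while F11r, at 1.77-fold, held 1. The 5 promoters below are examples. They show the motif in a high keratin and in 3 of the members whose levels varied between libraries. The last lacks it and is that of the scaffold gene whose level varied least. Picked examples cannot show whether the motif goes with spread. Each is written 5′ to 3′ on the gene's strand and ends at the base before the annotated start, with the E-box in capitals.
Krt8: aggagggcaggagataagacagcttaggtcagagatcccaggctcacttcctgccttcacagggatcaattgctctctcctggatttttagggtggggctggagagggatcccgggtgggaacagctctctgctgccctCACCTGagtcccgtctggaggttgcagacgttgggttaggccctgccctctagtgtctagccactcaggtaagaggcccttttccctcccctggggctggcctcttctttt
Epcam: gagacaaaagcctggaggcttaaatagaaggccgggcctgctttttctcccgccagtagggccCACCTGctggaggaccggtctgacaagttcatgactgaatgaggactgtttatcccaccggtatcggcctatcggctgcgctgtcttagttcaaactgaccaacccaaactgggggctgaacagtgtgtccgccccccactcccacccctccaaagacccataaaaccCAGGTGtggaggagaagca
Muc1: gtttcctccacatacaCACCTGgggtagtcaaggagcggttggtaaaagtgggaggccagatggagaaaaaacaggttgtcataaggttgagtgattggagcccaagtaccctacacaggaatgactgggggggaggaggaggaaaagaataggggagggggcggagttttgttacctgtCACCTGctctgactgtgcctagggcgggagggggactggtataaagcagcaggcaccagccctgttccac
Spint2: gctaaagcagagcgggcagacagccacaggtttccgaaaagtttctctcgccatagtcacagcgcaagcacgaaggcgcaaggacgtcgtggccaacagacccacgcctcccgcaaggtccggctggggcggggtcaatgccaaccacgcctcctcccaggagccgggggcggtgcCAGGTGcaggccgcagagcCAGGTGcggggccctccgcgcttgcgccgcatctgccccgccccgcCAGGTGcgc
Tjp1: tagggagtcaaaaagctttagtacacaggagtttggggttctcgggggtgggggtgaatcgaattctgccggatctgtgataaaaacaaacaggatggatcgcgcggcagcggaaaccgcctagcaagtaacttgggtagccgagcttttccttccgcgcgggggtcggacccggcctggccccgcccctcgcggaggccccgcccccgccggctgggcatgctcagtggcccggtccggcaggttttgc

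These windows lie at chr15:102004343-102004592, minus strand, for Krt8, at chr17:87635729-87635978, plus strand, for Epcam and at chr3:89228806-89229055, plus strand, for Muc1. Those of Spint2 and Tjp1 lie at chr7:29281978-29282227, minus strand, and at chr7:65371245-65371494, minus strand, all in GRCm38.p6. The E-box of Krt8 begins 111 bases before the start, those of Epcam 187 and 19 bases before it, and those of Muc1 234 and 70 bases before it. Spint2 holds 3, beginning 74, 55 and 9 bases before the start, and Tjp1 holds 0.

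Claudins, the strand-forming proteins of tight junctions, were low and more uneven than keratins. Cldn7 (ENSMUSG00000018569), which binds EPCAM at the lateral membrane, had 2.92, 2.19, 3.74 and 4.69 CPM in PDT 1 to PDT 4, against 1.09, 2.95, 16.7 and 2.67 CPM in PBS 1 to PBS 4. The PBS values spanned 15.4-fold, with PBS 3 far above the rest, and the log2 difference of −0.79 ± 0.69 (adjusted p = 0.628 by edgeR) turned to 0.60 without PBS 3. The barrier claudins Cldn3 (ENSMUSG00000070473) and Cldn4 (ENSMUSG00000047501), neighbours on chromosome 5, differed in their PDT pattern. Cldn3 had 3.23, 3.72, 9.14 and 4.93 CPM in PDT 1 to PDT 4, against 1.39, 7.67, 12.9 and 3.49 CPM in PBS 1 to PBS 4, and Cldn4 had 9.57, 3.51, 6.95 and 3.96 CPM in PDT 1 to PDT 4, against 4.57, 9.24, 18.9 and 5.35 CPM in PBS 1 to PBS 4. Both were highest in PBS 3, but among PDT libraries Cldn3 was highest in PDT 3 and Cldn4 in PDT 1. Their log2 differences were −0.28 ± 0.57 and −0.66 ± 0.46 (adjusted p = 0.871 and 0.533). Cldn1, the main claudin of the epidermal barrier, ranged over 0.83 to 3.32 CPM in PDT and 0.191 to 4.31 CPM in PBS, Cldn6, an embryonic claudin, over 1.82 to 4.99 CPM in PDT and 0.639 to 5.7 CPM in PBS, and Cldn23 over 1.43 to 3.13 CPM in PDT and 0.639 to 6.41 CPM in PBS. The adjusted p-values of these 3 were 0.908 to 0.956.

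The scaffold Tjp1 (ENSMUSG00000030516), which encodes ZO-1, was the steadiest member and the 1 whose groups did not overlap. It had 84.3, 104, 106 and 96.6 CPM in PDT 1 to PDT 4, against 114, 115, 126 and 111 CPM in PBS 1 to PBS 4. All 4 PDT values lay below all 4 PBS values, the group means being 97.7 ± 9.71 CPM in PDT and 117 ± 6.61 CPM in PBS (SD, n = 4 each). The log2 difference was small, at −0.26 ± 0.12 (SE, adjusted p = 0.298 by edgeR, unadjusted p = 0.0486), did not pass, and with 1 library left out it ran from −0.30 to −0.18. Its SD among PBS libraries stood at percentile 3.73 of all tested genes. ZO-1 is also made by endothelial cells and fibroblasts, so this transcript is not a measure of epithelium alone.

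Of the other tight junction members, Tjp3 lay above 0 on the log2 scale and Ocln, F11r and Marveld2 below, and 0 passed. Each kept its sign with 1 library left out. Occludin (Ocln, ENSMUSG00000021638), a strand protein of the tight junction, had 12.3, 7.23, 10.1 and 13.7 CPM in PDT 1 to PDT 4, against 12.8, 22, 21.5 and 7.96 CPM in PBS 1 to PBS 4. PBS 2 and PBS 3 were the 2 highest libraries, and the log2 difference was −0.57 ± 0.32 (adjusted p = 0.414 by edgeR, 95% interval −1.26 to 0.13). Tjp3, which encodes the epithelial scaffold ZO-3, ranged over 20.7 to 51.3 CPM in PDT and 9.3 to 54.8 CPM in PBS and differed on the log2 scale by 0.31 ± 0.45 (adjusted p = 0.798). F11r encodes the junctional adhesion molecule JAM-A and is also made by leukocytes and endothelium. It ranged over 82 to 116 CPM in PDT and 76.7 to 136 CPM in PBS (log2 difference −0.15 ± 0.18, adjusted p = 0.74 by edgeR). Marveld2, the tricellulin of contacts where cell corners meet, had 4, 12, 6 and 38 reads in PDT 1 to PDT 4, against 53, 46, 30 and 4 reads in PBS 1 to PBS 4. It was near the floor in PDT 1, PDT 3 and PBS 4 (log2 difference −1.24 ± 0.98, adjusted p = 0.59 by edgeR).

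Desmosome genes repeated the pattern of a high PBS 3 and no call between groups. Desmoplakin (Dsp, ENSMUSG00000054889), which ties keratin filaments to the desmosome, had 62, 58.9, 102 and 101 CPM in PDT 1 to PDT 4, against 76.7, 78.3, 158 and 47.1 CPM in PBS 1 to PBS 4. PDT 3, PDT 4 and PBS 3 were the high libraries and PBS 4 the lowest, and the log2 difference was −0.15 ± 0.32 (adjusted p = 0.871 by edgeR, 95% interval −0.86 to 0.55). Plakophilin 3 (Pkp3), a desmosomal plaque protein, ranged over 12.5 to 26.4 CPM in PDT and 8.66 to 37.7 CPM in PBS and differed on the log2 scale by 0.15 ± 0.40 (adjusted p = 0.903). Plakoglobin (Jup), shared by desmosomes and adherens junctions, was more even, at 119.6 to 182 CPM in PDT and 131 to 207 CPM in PBS and a log2 difference of −0.24 ± 0.18 (adjusted p = 0.563).

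In the matriptase system, the inhibitors were read far above the protease. Spint2 (ENSMUSG00000074227), a Kunitz-type inhibitor of matriptase, had 172, 142, 244 and 358 CPM in PDT 1 to PDT 4, against 189, 278, 347 and 122 CPM in PBS 1 to PBS 4. PDT 4 and PBS 3 were the 2 highest libraries, and the log2 difference was −0.031 ± 0.33 (adjusted p = 0.977 by edgeR). Spint1, the second such inhibitor, ranged over 15.6 to 23.4 CPM in PDT and 15.2 to 31.1 CPM in PBS (log2 difference −0.12 ± 0.25, adjusted p = 0.872). St14, which encodes matriptase, had 98, 38, 114 and 38 reads in PDT 1 to PDT 4, against 26, 32, 96 and 26 reads in PBS 1 to PBS 4. Per kilobase of exon, Spint2 stood at 50.3 in PDT and 51.4 in PBS, Spint1 at 7.53 in PDT and 8.18 in PBS and St14 at 0.216 in PDT and 0.155 in PBS CPM. The St14 difference was 0.48 ± 0.63 on the log2 scale (adjusted p = 0.776).

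Among epithelial regulators, the gut and ductal factors were well expressed and the Grhl2 and Ovol1 genes barely read. Sox9 (ENSMUSG00000000567), a transcription factor of pancreatic ducts and progenitors, had the smallest p of all members. It had 65.4, 57.1, 82.7 and 75.4 CPM in PDT 1 to PDT 4, against 80.04, 97.6, 97.8 and 115 CPM in PBS 1 to PBS 4. The groups overlapped only through PBS 1, which lay between PDT 3 and PDT 4, and the means were 70.2 ± 11.2 CPM in PDT and 97.5 ± 14.1 CPM in PBS (SD, n = 4 each). The log2 difference was −0.47 ± 0.15 (SE, adjusted p = 0.155 by edgeR, 0.0607 by DESeq2 and 0.134 by limma-voom, 95% interval −0.81 to −0.14), and with 1 library left out it ran from −0.56 to −0.37. Sox9 was also the 1 member highest in PBS 4, where Epcam, Ehf and Elf3 were lowest.

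Hnf4a (ENSMUSG00000017950), a nuclear receptor of gut and liver epithelium, had 83.7, 93, 121 and 144 CPM in PDT 1 to PDT 4, against 84.3, 121, 106 and 94.1 CPM in PBS 1 to PBS 4. It was among the steadier members, and its log2 difference was 0.12 ± 0.18 (adjusted p = 0.803 by edgeR). The ETS factors Elf3 (ENSMUSG00000003051) and Ehf (ENSMUSG00000012350) ranged over 40.9 to 90.2 CPM in PDT and 31 to 104 CPM in PBS and over 72.8 to 152 CPM in PDT and 42 to 151 CPM in PBS. Their log2 differences were 0.0029 ± 0.32 and 0.18 ± 0.33 (adjusted p = 0.999 and 0.848). Both were lowest in PBS 4 among PBS libraries and lowest in PDT 2 among PDT libraries.

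The splicing factor Esrp1 (ENSMUSG00000040728), which sets epithelial exon choice, had 7.44, 4.63, 16.7 and 7.62 CPM in PDT 1 to PDT 4, against 2.88, 11.1, 24.4 and 1.45 CPM in PBS 1 to PBS 4. Its range was 3.6-fold within PDT and 16.8-fold within PBS, and the log2 difference was −0.13 ± 0.70 (adjusted p = 0.952 by edgeR). Its paralogue Esrp2 was steadier, at 13.1 to 23.2 CPM in PDT and 13.4 to 32.7 CPM in PBS (log2 difference −0.16 ± 0.30, adjusted p = 0.855). Grhl2 (ENSMUSG00000022286), a Grainyhead factor that activates junction genes, had 4, 0, 18 and 8 reads in PDT 1 to PDT 4, against 8, 2, 12 and 0 reads in PBS 1 to PBS 4. Ovol1 (ENSMUSG00000024922), a zinc-finger repressor of mesenchymal genes, had 0, 0, 0 and 14 reads in PDT 1 to PDT 4, against 0, 0, 28 and 2 reads in PBS 1 to PBS 4. Outside PBS 3 and PDT 4, Ovol1 was at or under the floor of 3 reads. Keratins and Epcam were read at high levels in tumours where these 2 regulators were at or near the limit of detection.

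Surface and secreted products of ductal tumour cells also overlapped between groups. Msln (ENSMUSG00000063011), mesothelin, a surface protein of mesothelium and of pancreatic tumour cells, had 173, 151, 215 and 249 CPM in PDT 1 to PDT 4, against 170.4, 236, 297 and 213 CPM in PBS 1 to PBS 4. Its log2 difference was −0.22 ± 0.19 (adjusted p = 0.638 by edgeR, 95% interval −0.64 to 0.21). The transmembrane mucin Muc1 (ENSMUSG00000042784) had 32.8, 24.1, 64.8 and 65 CPM in PDT 1 to PDT 4, against 14, 33.1, 98 and 29.6 CPM in PBS 1 to PBS 4. PDT 3 and PDT 4 were alike and below PBS 3, and PBS 1 was the lowest library (log2 difference 0.10 ± 0.50, adjusted p = 0.953). Lgals4 (ENSMUSG00000053964) had 486, 488, 564 and 989 CPM in PDT 1 to PDT 4, against 448, 474, 838 and 304 CPM in PBS 1 to PBS 4. PDT 4 was the highest library and PBS 4 the lowest (log2 difference 0.29 ± 0.30, adjusted p = 0.701). Tspan8 was steadier, at 198 to 329 CPM in PDT and 199 to 349.5 CPM in PBS (log2 difference −0.031 ± 0.20, adjusted p = 0.96).

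The largest contrasts of the set lay between libraries of the same group. In PBS 3 all 33 tested members were above their own median over the 8 libraries, with a median excess of 0.77 on the log2 scale, and 27 of 33 had their highest PBS value there, against 25.6% of all tested genes. Among PDT libraries PDT 4 held the highest value of 22 members and PDT 2 the lowest of 22, where the shares over all genes were 25.7% and 27.1%. PBS 4 and PBS 1 held the lowest PBS value of 18 and 14 members, or all but 1, against 22.3% and 30.7% of all genes. The members' median deviation was −0.078, −0.42, 0.19 and 0.31 in PDT 1 to PDT 4, and −0.22, 0.083, 0.77 and −0.51 in PBS 1 to PBS 4. Over all tested genes that deviation stayed within −0.015 and 0.0078.

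**Figure D3:**
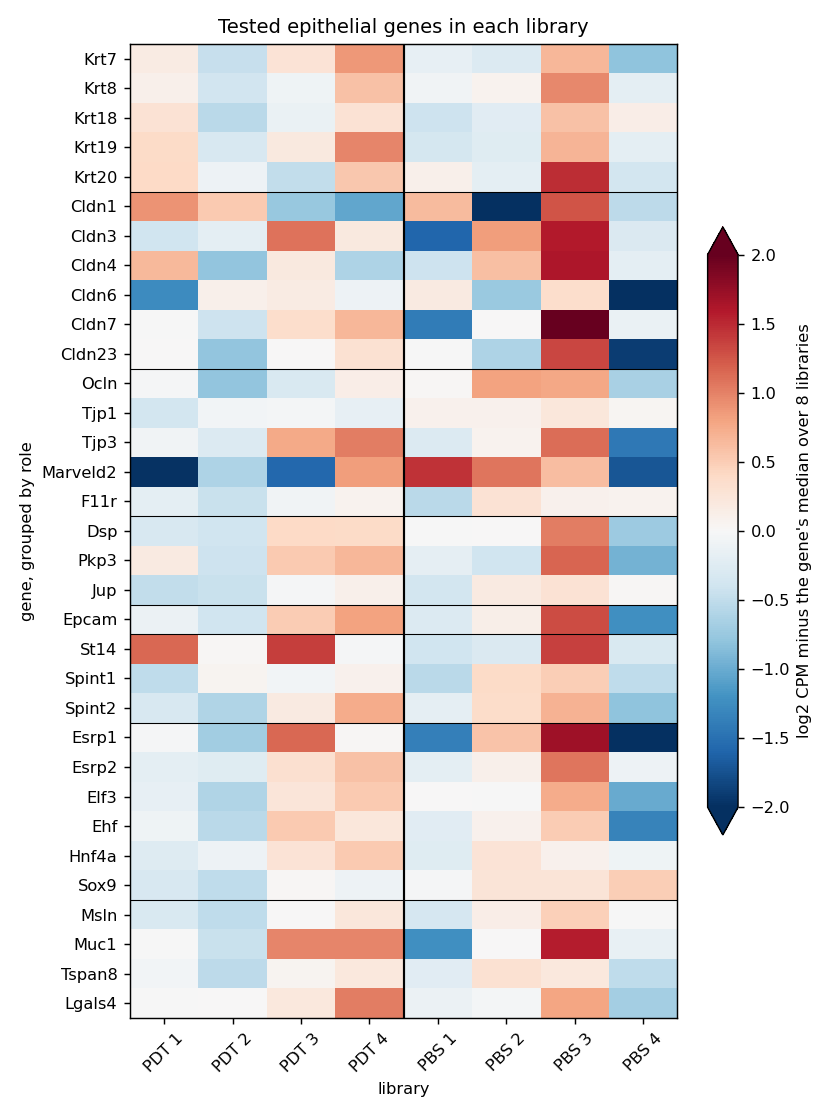
Each tested member (rows, grouped by role) in each library (columns, PDT left and PBS right), coloured by log2 CPM minus the gene's own median over the 8 libraries, with colours capped at 2 either way. PBS 3 is above the median in all 33 rows and PDT 2 in 5 of 33.

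The genes that PBS 3 did not lead were Ocln, F11r, Hnf4a and Tspan8, highest in PBS 2, Marveld2, highest in PBS 1, and Sox9, highest in PBS 4. Of all tested genes 22.6% were highest in PBS 2 within PBS. The SD of log2 CPM among libraries had a median over the members of 0.47 in PDT and 0.72 in PBS, against 0.30 and 0.33 over all tested genes. In each group 29 of 33 members were above the median of all genes. Low genes such as Cldn1 and Marveld2 carry counting error in this measure, but Epcam had at least 2452 reads and Dsp at least 1620 in every library. Their PBS spread stood at percentiles 83.7 and 75.8 of all tested genes.

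**Figure D4:**
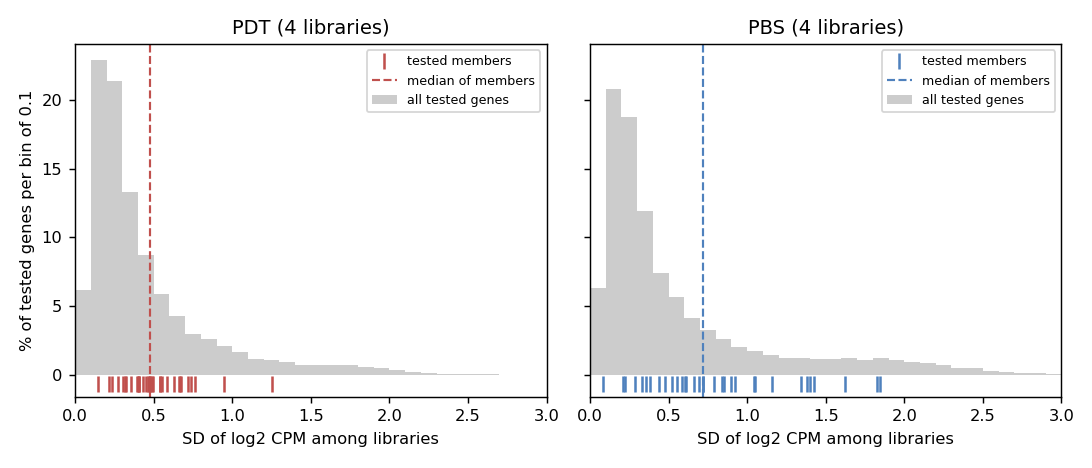
SD of log2 CPM among the 4 libraries of PDT (left) and PBS (right), with grey bars for the percent of all tested genes per bin, ticks for the 33 tested members and a dashed line at the members' median. The members' medians are 0.47 in PDT and 0.72 in PBS, above the 0.30 and 0.33 of all tested genes.

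Markers of other cells moved with the same libraries. Epidermal genes, which a subcutaneous tumour could carry from overlying skin, summed over 19 listed genes, 1 of them absent from the table, to 32.5, 24.4, 26.3 and 74.5 CPM in PDT 1 to PDT 4, and to 36.8, 21.6, 144 and 22.5 CPM in PBS 1 to PBS 4. The basal keratin Krt5 had 0.487, 0.127, 0.201 and 3.25 CPM in PDT 1 to PDT 4, against 0, 0, 14.3 and 0 CPM in PBS 1 to PBS 4, and Krt14 had 11.3, 9.34, 12.2 and 26.6 CPM in PDT 1 to PDT 4, against 20.6, 8.91, 52.9 and 8.6 CPM in PBS 1 to PBS 4. The epidermal master factor Trp63 had at most 1.26 CPM, in PDT 1. PDT 4 and PBS 3 were, within their groups, highest both in summed CPM of the members and in epidermal genes. Epidermis also makes several members such as Cldn1, Dsp, Jup and St14. Within PBS each of these was highest in PBS 3. Within PDT, Jup was highest in PDT 4 and Dsp in PDT 3, while Cldn1 and St14 were lowest in PDT 4. Of the 25 tested genes of pancreatic duct and gut lineage, 19 also had their highest PBS value in PBS 3. The part of epidermal RNA in the members' pattern was not tested. With PBS 3 and PDT 4 both left out, 0 members passed (smallest adjusted p = 0.393 by edgeR), 22 of 33 were above 0 and the median was 0.13.

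Stromal markers ran the other way in PBS 3. Summed over 10 macrophage genes, libraries held 4920.4 to 6628 CPM in PDT and 2070.2 to 3993 CPM in PBS, with the lowest value in PBS 3, and 9 of 10 had their lowest PBS value there. The 10 fibroblast genes summed to 11657 to 13332 CPM in PDT and 7122 to 14731 CPM in PBS, and 8 of 10 were lowest in PBS 3 and 8 of 10 lowest in PDT 4 within their groups. Between groups, the macrophage list had 10 of 10 genes above 0 with a median of 0.57, and Cd68, a lysosomal glycoprotein of macrophages, was its 1 called gene (log2 difference 0.85 ± 0.15, adjusted p = 0.0497 by edgeR). That call was lost with any 1 of the 8 libraries left out (adjusted p = 0.0527 to 0.163), while DESeq2 called 5 of these 10 genes and limma-voom 2. C1qa, a complement subunit of macrophages, differed on the log2 scale by 1.02 ± 0.22 (adjusted p = 0.0663 by edgeR, 0.000245 by DESeq2 and 0.0445 by limma-voom). Reads taken by one cell type leave fewer for all others. The TMM scaling of the CPM may not fully offset this, and its part in the members' values was not tested. Endothelial genes summed to 72.2 to 98.8 CPM in PDT and 74.7 to 88.6 CPM in PBS, and muscle genes to 170.2 to 3494 CPM in PDT and 58 to 1438 CPM in PBS. Muscle reads were highest in PDT 2 and PBS 2. PDT 2 held the lowest PDT value of 22 of 33 members, but PBS 2 the lowest PBS value of 1 of 33. The shares over all genes were 27.1% and 22.4%.

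**Figure D5:**
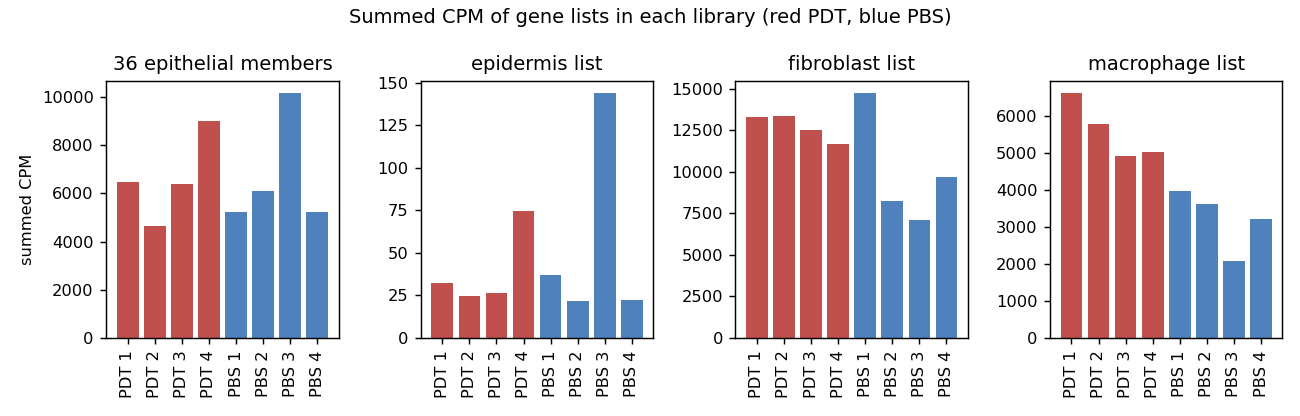
Summed CPM per library of the 36 epithelial members, the epidermis list, the fibroblast list and the macrophage list, with PDT in red on the left and PBS in blue on the right of each panel, each panel with its own axis from 0. PBS 3 has the highest sums of members and of epidermal genes and the lowest of the fibroblast and macrophage lists.

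Other genes of the same epithelial systems gave 0 calls in edgeR as well. Further tight junction genes had 8 of 19 tested genes above 0 and 11 below, with a median of −0.049, and without PBS 3, 14 of 19 were above 0 with a median of 0.12. Without PDT 1 and without PDT 2, 13 of 19 were above 0, with medians of 0.096 and 0.11. With any other library left out, 3 to 8 of 19 were above 0. The adhesion receptor Cxadr had 64.3, 69.8, 67.5 and 65.5 CPM in PDT 1 to PDT 4, against 74.2, 103, 116 and 81 CPM in PBS 1 to PBS 4, all PDT values below all PBS values, and its log2 difference was −0.48 ± 0.15 (adjusted p = 0.144 by edgeR). Cldn12 also did not overlap (log2 difference −0.39 ± 0.13, adjusted p = 0.175). Further desmosome and hemidesmosome genes had 1 of 12 tested genes above 0 and 11 below, with a median of −0.29, where 50.2% of all tested genes were below 0. Of these 12, 10 were highest in PDT 4 within PDT and 11 highest in PBS 3 within PBS, the libraries with most epidermal reads, whose part was not tested. Without PBS 3, 7 of 12 were above 0 with a median of 0.0061, and without PBS 3 and PDT 4, 2 of 12 were above 0 with a median of −0.13. The desmosomal Pkp1 differed by −0.78 ± 0.25 and the laminin receptor subunit Itga6 by −0.55 ± 0.20 (adjusted p = 0.157 and 0.201 by edgeR, 0.0498 and 0.0807 by DESeq2). DESeq2 thus called Pkp1.

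The wider epithelial programme had 8 of 20 tested genes above 0 and 12 below, with a median of −0.13, and without PBS 3, 12 of 20 were above 0 with a median of 0.12. E-cadherin (Cdh1), the adhesion molecule that defines epithelium, had 168, 162, 291 and 269 CPM in PDT 1 to PDT 4, against 184, 277, 372 and 181 CPM in PBS 1 to PBS 4, again highest in PBS 3. Its log2 difference was −0.19 ± 0.26 (adjusted p = 0.788 by edgeR), that of the epithelial factor Klf5 was −0.13 ± 0.16 (0.755), and that of P-cadherin (Cdh3) was 0.52 ± 0.65 (0.76). The 2 genes with the smallest p were Macc1, with 0.487, 3.92, 1.29 and 0.781 CPM in PDT 1 to PDT 4, against 9.35, 2.48, 8.35 and 4.24 CPM in PBS 1 to PBS 4, and Prrg4, which differed on the log2 scale by −1.17 ± 0.45 (adjusted p = 0.221). Macc1, an activator of MET expression, differed by −1.91 ± 0.65 and missed the threshold in edgeR (adjusted p = 0.172) but not in DESeq2 (adjusted p = 0.0309).

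Genes of pancreatic duct and gut lineage had 13 of 25 tested genes above 0 and 12 below, with a median of 0.0097, and without PBS 3, 18 of 25 were above 0 with a median of 0.17. Foxa2, a pioneer factor of foregut epithelium, had 32.2, 30.3, 33.5 and 36.8 CPM in PDT 1 to PDT 4, against 40.2, 48.5, 61.4 and 53.6 CPM in PBS 1 to PBS 4. All 4 PDT values lay below all 4 PBS values, and the log2 difference was −0.62 ± 0.15 (adjusted p = 0.089 by edgeR and 0.0116 by DESeq2). Gata6, a factor of the classical subtype of pancreatic cancer, had 23.3, 31, 29.2 and 29.4 CPM in PDT 1 to PDT 4, against 39.4, 37.4, 46.8 and 40.6 CPM in PBS 1 to PBS 4. Its groups did not overlap either, and they differed on the log2 scale by −0.54 ± 0.14 (adjusted p = 0.0978 by edgeR and 0.0233 by DESeq2). Pdx1, the pancreatic lineage factor, differed by 0.10 ± 0.22 (adjusted p = 0.875). Foxa2, Gata6 and Sox9 had lower PDT means while Hnf4a and Pdx1 had higher ones, and 0 of these 5 passed in edgeR.

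Mesenchymal genes had 6 of 12 tested genes above 0 and 6 below, with a median of 0.018. Vimentin (Vim), the intermediate filament of mesenchymal cells, had 4293, 4183, 3183 and 3305 CPM in PDT 1 to PDT 4, against 4398, 4027, 4676 and 5247 CPM in PBS 1 to PBS 4 (log2 difference −0.29 ± 0.15, adjusted p = 0.345 by edgeR). Zeb1 differed by −0.31 ± 0.19 (adjusted p = 0.475) and Twist1 by 0.52 ± 0.21 (adjusted p = 0.238). Fibronectin (Fn1) did not overlap between groups, at 942 to 1365 CPM in PDT and 1418 to 2505 CPM in PBS (log2 difference −0.75 ± 0.21, adjusted p = 0.109 by edgeR and 0.00834 by DESeq2). Cell cycle genes had 5 of 8 tested genes above 0 and 3 below, with a median of 0.057.

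Marker lists of other epithelia that could lie near such tumours were read at low levels, apart from Cela1 of the acinar list. The 2 tested acinar genes and the 1 tested mammary gene had their highest PBS value in PBS 3. Of 10 acinar genes 5 had 0 reads in every library, and nearly all acinar reads were those of Cela1, which other tissues also make, at 66.3 to 103 CPM in PDT and 29.6 to 209.8 CPM in PBS. Milk protein genes of the mammary list had 3 of 7 at 0 in every library, and the list summed to 1.94 to 16 CPM in PDT and 2.33 to 10.3 CPM in PBS, mostly from Ltf. The 6 mesothelial genes summed to 1.06 to 2.09 CPM in PDT and 0.544 to 4.91 CPM in PBS, with Wt1 at 0.178 to 0.928 CPM in PDT and 0.21 to 0.858 CPM in PBS, near 0 beside the level of Msln. Adipocyte genes, which are not epithelial, summed to 71.4 to 386 CPM in PDT and 33.2 to 398 CPM in PBS, highest in PDT 3 and PBS 2.

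The remaining marker genes named by rule are given as log2 difference of PDT minus PBS ± SE, with the adjusted p by edgeR in brackets. For fibroblasts these were Col1a1 0.54 ± 0.18 (0.165) and Pi16 −0.83 ± 0.37 (0.288), and for endothelium Erg 0.83 ± 0.28 (0.167), Cdh5 0.40 ± 0.20 (0.355) and Pecam1 0.24 ± 0.19 (0.59). The pan-leukocyte gene Ptprc differed by 0.31 ± 0.20 (0.47). In skeletal muscle genes, which reached their highest sums in PDT 2, the values were Myh1 1.75 ± 0.69 (0.226) and Mylpf 1.85 ± 0.80 (0.273), and in adipocyte genes Fabp4 0.69 ± 0.71 (0.693) and Lep −1.11 ± 1.45 (0.775). The cornified-envelope genes of epidermis gave Ivl 0.49 ± 0.37 (0.571) and Sbsn 0.70 ± 0.39 (0.412). Values were Aurkb 0.32 ± 0.13 (0.258) and Bub1 −0.22 ± 0.19 (0.621) for cell division, Gpm6a −1.34 ± 1.19 (0.636) for mesothelium and Prss2 −0.72 ± 0.84 (0.744) for acinar cells. Of these genes 0 passed in edgeR, and DESeq2 called Col1a1 (adjusted p = 0.0434).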

How the data were processed

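Per the labels' protocols, ribosomal RNA was removed before a directional library preparation. Gene counts of the 8 libraries, not normalized, were deposited as 1 table. The submitters' processing notes list cutadapt 4.6, STAR 2.7.11b and the build GRCm39. How reads were counted, with which strand setting and annotation, is not given in the sources used here. Without a known strand setting, reads of 11 members whose exons overlap an opposite-strand gene in GENCODE M21 (Krt7, Krt8, Cldn3, Tjp3, Dsp, Esrp1, Esrp2, Grhl2, Ovol1, Elf3 and Tspan8) cannot be fully told from that gene's. The pseudogene Krt8-ps held 622 reads in PDT and 1093 in PBS. Of counts from 1 to 20, 77.9% to 83.8% were even, as when both reads of a pair are counted.

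Counts were tested with R 4.3.3, edgeR 4.0.16 (filterByExpr, 16588 genes, TMM scaling, quasi-likelihood test, no covariate) and Benjamini-Hochberg adjustment over all tested genes at 0.05. Standard errors are the log2 fold change over the root of F, and 95% intervals use the fit's degrees of freedom. Chi-square over its degrees of freedom was 62.1 to 191 for the 28 pairs of libraries, beyond sampling noise. Log2 CPM used a prior count of 2. Exon lengths came from GENCODE M21 by identifier, and promoters from RefSeq GRCm38.p6 by symbol, since no GRCm39 genome was used here. The fitting was tested on simulated data. Named genes were all 36 members, the 2 genes with the smallest p and every called gene of each of 15 lists, and a fixed set of anchors. 1 listed gene, Fam25c, was not in the table. Members and lists were chosen with earlier results of these data known. Alternatives were RLE scaling, other count filters, halved counts, DESeq2 1.42.0, voom weights per sample and observation in limma 3.58.1 (limma-voom), a replicate block and each library left out. A fit without PBS 3 and PDT 4 was added after the data were seen.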

Additional observations from a re-analysis of the deposited data

Results flagged for a closer look

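In 7 of 66 sets of 4 values, a tested member in PDT or in PBS, 1 library lay far from the other 3 by the ratio of its gap to the range. The rule would flag about 1 in 20 independent sets of normal values by chance. Members vary together in the same libraries, so 7 of 66 cannot be weighed against that rate. The share flagged over all tested genes was not computed. The library apart was PBS 3 for 6 genes of keratin filaments, tight junctions, matriptase and splicing. It held 3089 CPM for Krt8 against 1399 to 1671 CPM elsewhere in its group, 947 CPM for Krt19 against 459 to 514 CPM elsewhere in its group, 165 CPM for Krt20 against 45.9 to 63.2 CPM elsewhere in its group. It also held 16.7 CPM for Cldn7 against 1.09 to 2.95 CPM elsewhere in its group, 2.52 CPM for St14 against 0.707 to 0.762 CPM elsewhere in its group, 32.7 CPM for Esrp2 against 13.4 to 16.6 CPM elsewhere in its group. PDT 4 held 989 CPM for Lgals4 against 486 to 564 CPM elsewhere in its group. PBS 3 and PDT 4 were also the libraries of their groups with the highest summed CPM of epidermal genes, and the part of those in these values was not tested.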

How the results depend on the processing

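The count of called members was 0 under each of the 16 alternatives run, with a smallest adjusted p of 0.0607 (DESeq2, Sox9). The count over all genes, 39, was 41 with RLE scaling, 534 with no count filter, 88 with a filter of 1 CPM in 4 libraries, 67 with counts divided by 2, 869 with DESeq2 and 167 with limma-voom. It was 0 to 122 with 1 library left out and 0 without PBS 3 and PDT 4, where 1716 genes had an unadjusted p under 0.05. With the replicate number as a block it was 182, with 0 members called. The numbers did not pair the libraries, since deviations of same-numbered libraries correlated at 0.038 to 0.069, and none correlated best with its own number. No member had a direction that passed a test, and the sign of small differences turned. On the log2 scale the block gave Cldn1 0.13, Cldn3 0.024, Cldn23 0.13, Esrp1 0.43. Limma-voom gave Cldn1 0.51, Cldn3 0.10, Cldn23 0.32, Dsp 0.069, Spint2 0.052, Esrp1 0.59. Elf3, at 0.0029, was −0.0031 with the CPM filter and −0.0019 with halved counts. Without PBS 3 and PDT 4 the values were Krt18 0.068, Krt20 0.13, Cldn1 0.72, Cldn3 0.36, Cldn4 0.065, Cldn7 0.40, Cldn23 0.45, Dsp 0.14, Spint1 0.011, Esrp1 0.89, Esrp2 0.049, Hnf4a −0.0059. With 1 library left out, the signs of these members turned within the ranges Krt8 −0.36 to 0.17, Krt18 −0.18 to 0.17, Krt20 −0.50 to 0.29, Cldn1 −0.52 to 0.47, Cldn3 −0.68 to 0.33, Cldn6 −0.17 to 0.51, Cldn7 −1.13 to 0.60, Cldn23 −0.53 to 0.60, Dsp −0.35 to 0.27, Pkp3 −0.069 to 0.77, Epcam −0.25 to 0.64, Spint1 −0.27 to 0.073, Spint2 −0.32 to 0.22, Esrp1 −0.60 to 0.82, Esrp2 −0.32 to 0.23, Elf3 −0.21 to 0.33, Ehf −0.060 to 0.46, Hnf4a −0.019 to 0.25, Muc1 −0.19 to 0.87, Tspan8 −0.15 to 0.11. The other 13 tested members kept their sign in all 8 of these fits. The cause was not tested. Rab25, Grhl2 and Ovol1 could not be tested for want of reads, and St14 and Marveld2 gave no value under the CPM filter.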

Other observations

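Within a library the scaling cancels when 2 members are divided by each other. The CPM of Krt19 over that of Krt8 was 0.445, 0.382, 0.446 and 0.484 in PDT 1 to PDT 4, and 0.302, 0.299, 0.307 and 0.368 in PBS 1 to PBS 4. All 4 PDT values lay above all 4 PBS values, PBS 3 included, at 0.439 ± 0.0421 in PDT and 0.319 ± 0.0329 in PBS (SD, n = 4 each, two-sided exact permutation p = 0.0286, the lowest possible with 70 assignments). Adjusted over the 5 ratios looked at, p was 0.143 by the same exact test. The ratio was chosen after the values were seen, a choice that neither p-value takes into account. The other ratios, Krt18, Epcam and Sox9 over Krt8 and Esrp1 over Esrp2, overlapped between the groups, with exact permutation p-values of 0.314 to 0.686. Krt18 over Krt8 was 0.999 in PBS 4, against 0.624 to 0.653 in the other PBS libraries.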
